A study of Mus musculus with 6 samples.

Results

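The genes described here are 38 mouse genes of antigen presentation by the major histocompatibility complex (MHC), taken by gene symbol from the deposited tables of 22672 listed genes. All 38 are listed in every table. They cover the class I chains (10 genes), the loading of peptides onto them (8), the immunoproteasome and its PA28 activator (5), the class II chains with the invariant chain (4), class II peptide exchange (4), endosomal processing (2) and transcriptional regulators (5).

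RNA was sequenced from BV2 cells, an immortalized mouse microglial line, in 3 libraries labelled shscr-ctr (scr in the series' design text) and 3 labelled shNumb-ctr, after the endocytic adaptor gene Numb. The labels name no treatment or time, do not spell out the suffix ctr, and do not say whether each line was 1 clone or whether the libraries of a group were separate cultures. The p-values therefore measure the spread between these libraries only, which may be technical.

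MHC class I molecules consist of a heavy chain and beta-2 microglobulin and carry peptides from the cytosol to the cell surface, where CD8 T cells and natural killer cells read them. The peptides are cut by the proteasome, pumped into the endoplasmic reticulum by the TAP transporter and fitted by tapasin and chaperones. Class II molecules carry peptides from endosomes to CD4 T cells, are guarded by the invariant chain on the way, and need the coactivator CIITA for their transcription. Resting microglia express little class II and gain it in inflammation.

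The unit of the deposited values is taken to be FPKM, that is, sequenced fragments scaled to transcript length and library size. They summed to between 451077 and 455561 per library, and the depth behind them is unknown. Numb itself stood at 35.8, 36.7 and 36.1 FPKM in the shscr-ctr libraries, given here and throughout in replicate order, and at 38.04, 37.17 and 39.98 in the libraries labelled shNumb-ctr. It was not lower there (log2 fold change 0.08, SE 0.036, limma adjusted p = 0.137), so the target gene goes against the label and each direction below is only that between the labels. The library labelled shNumb-ctr replicate 2 stood apart in stimulation genes, with Il1b at 4.14 FPKM against at most 0.810 elsewhere and Cxcl10 at 6.56 against at most 2.16. All 14 listed microglial and macrophage markers were at 1 FPKM or above in at least 1 library, although the homeostatic markers P2ry12 and Tmem119 reached only 1.09 and 2.02 FPKM. Markers of B cells, T cells, astrocytes, neurons and fibroblasts stayed under 1 FPKM in every library. Of 8 dendritic cell markers only Zbtb46 exceeded 1 FPKM, with a highest value of 2.69. In bulk RNA, fewer cells of a type and less RNA per cell cannot be told apart.

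In the libraries labelled shNumb-ctr, 6 class I chain genes were called higher, by 16% to 40%. The 40% is that of H2-Q4, whose transcript is partly shared with other genes, and the next highest is H2-M3 at 28%. Of the 13 genes of peptide loading, the immunoproteasome and PA28, 0 were called higher, which is near the 8.11% over all genes tested. The difference between these steps was not tested. Of 31 presentation genes that passed the filter on low values (at least 1 FPKM in at least 3 libraries), 8 were called higher and 4 lower at a limma adjusted p under 0.05. Across all 10594 genes tested, 8.11% were called higher and 10.7% lower. The groups did not overlap in 10 presentation genes on the higher and 6 on the lower side, against 39.9% of all tested genes in either direction, 16.3% higher and 23.6% lower. All changes were small, with log2 fold changes between -0.25 and 0.46. The other 7 genes were not tested: H2-Q6, H2-Aa, H2-Ab1, H2-Eb1 and H2-Ob were listed at 0 in all 6 libraries, and H2-Q7 and Ciita lay below the filter. Of all 22672 listed genes, 7522 were at 0 in all 6 libraries. In all, 18.8% or 1989 genes were called, which became 964 when the first shscr-ctr library was left out, 1199 without the third, and 1138 and 1151 without the first and the third shNumb-ctr library. Its direction depends on scaling, since 43.2% of calls were higher as deposited and 55.5% after median-of-ratios rescaling. Without shscr-ctr replicate 1, 2 presentation genes were called lower in place of 4.

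Among the class I chains, 6 of the 8 tested genes were called higher and 0 lower, with a median log2 fold change of 0.23 against -0.02 over all genes tested. B2m, which encodes beta-2 microglobulin, the light chain shared by all classical class I molecules, measured 835, 839 and 832 FPKM in the shscr-ctr libraries. In the libraries labelled shNumb-ctr it was at 964, 1016 and 997 FPKM. All 3 of the latter lie above all 3 of the former, and the mean rose 1.19-fold, from 835 ± 3.15 to 992 ± 26.4 FPKM (SD, n = 3; log2 fold change 0.25, SE 0.027, limma adjusted p = 0.00146). By mean level B2m ranked 71 among all listed genes.

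H2-K1 and H2-D1 encode the classical heavy chains that present peptides to CD8 T cells, and they moved almost alike. H2-K1 stood at 339, 346 and 353 FPKM in shscr-ctr and at 413, 395 and 418 FPKM in the libraries labelled shNumb-ctr. H2-D1 stood at 341, 347 and 345 against 405, 390 and 413 FPKM. In both genes every shNumb-ctr library lies above every shscr-ctr library. The folds of means were 1.18 and 1.17, with log2 fold changes of 0.24 (SE 0.030) and 0.22 (SE 0.028) and limma adjusted p of 0.00274 and 0.00244. Together these genes gave between 82.4% and 83.6% of the summed heavy chain FPKM in each library.

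The remaining chains are nonclassical, with restricted peptides or receptors. H2-Q4, of the Qa region, had the largest log2 fold change of the 31 genes tested: it was at 19.4, 20.4 and 18.6 FPKM in shscr-ctr and at 27.4, 27.1 and 27.3 in the libraries labelled shNumb-ctr. It rose 1.397-fold (log2 fold change 0.46, SE 0.040, limma adjusted p = 7.2e-04), but its level is uncertain: 22.8% of its 50-base transcript windows are found elsewhere in the transcriptome too, and 19.1% of its exonic bases overlap the antisense gene Gm11131. H2-M3, which presents formylated bacterial and mitochondrial peptides, was at 17.5, 17.3 and 18.0 FPKM against 22.2, 21.9 and 23.4. The H2-M3 groups do not overlap, and the mean rose 1.28-fold (log2 fold change 0.34, SE 0.039, limma adjusted p = 0.00184). H2-T23, the mouse Qa-1 chain that displays leader peptides of other class I chains to natural killer cells, was at 73.3, 71.6 and 68.1 FPKM against 79.7, 82.9 and 85.3. Here too the groups are separate, with a 1.16-fold rise (log2 fold change 0.22, SE 0.038, limma adjusted p = 0.00876).

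H2-T22, a ligand of gamma-delta T cells in the mouse, and H2-T24 did not pass. H2-T22 was at 27.6 ± 2.15 against 28.8 ± 0.457 FPKM (SD, n = 3), with overlapping groups, a log2 fold change of 0.06 and a 95% interval of -0.06 to 0.18. Its level is uncertain, since 35.1% of its windows are shared, most of them with H2-T10. H2-T24 was at 6.06 ± 0.229 against 6.49 ± 0.292 FPKM (log2 fold change 0.09, 95% interval -0.04 to 0.21). H2-Q6 was listed at 0 throughout and H2-Q7 at no more than 0.106 FPKM, both with over 20% of windows shared with other genes. The reads of such near-identical genes may have been split between them by the authors' counting.

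The rise of the class I chains was also called without the library that stood apart in stimulation genes. Leaving out shNumb-ctr replicate 2, 6 chains were called higher and 0 lower, with log2 fold changes of 0.23 for B2m, 0.25 for H2-D1, 0.26 for H2-K1, 0.47 for H2-Q4, 0.35 for H2-M3 and 0.21 for H2-T23. The summed FPKM of the 10 chains was 1659, 1677 and 1668 in shscr-ctr and 1947, 1969 and 1999 in the libraries labelled shNumb-ctr. Over the same libraries the summed FPKM of the 14 microglial and macrophage markers ranged from 1604 to 1646 and from 1695 to 1836. Of 13 tested markers 6 were called higher and 2 lower, against 8.11% and 10.7% of all genes tested. The part of these markers in the class I result was not tested.

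**Figure D1:**
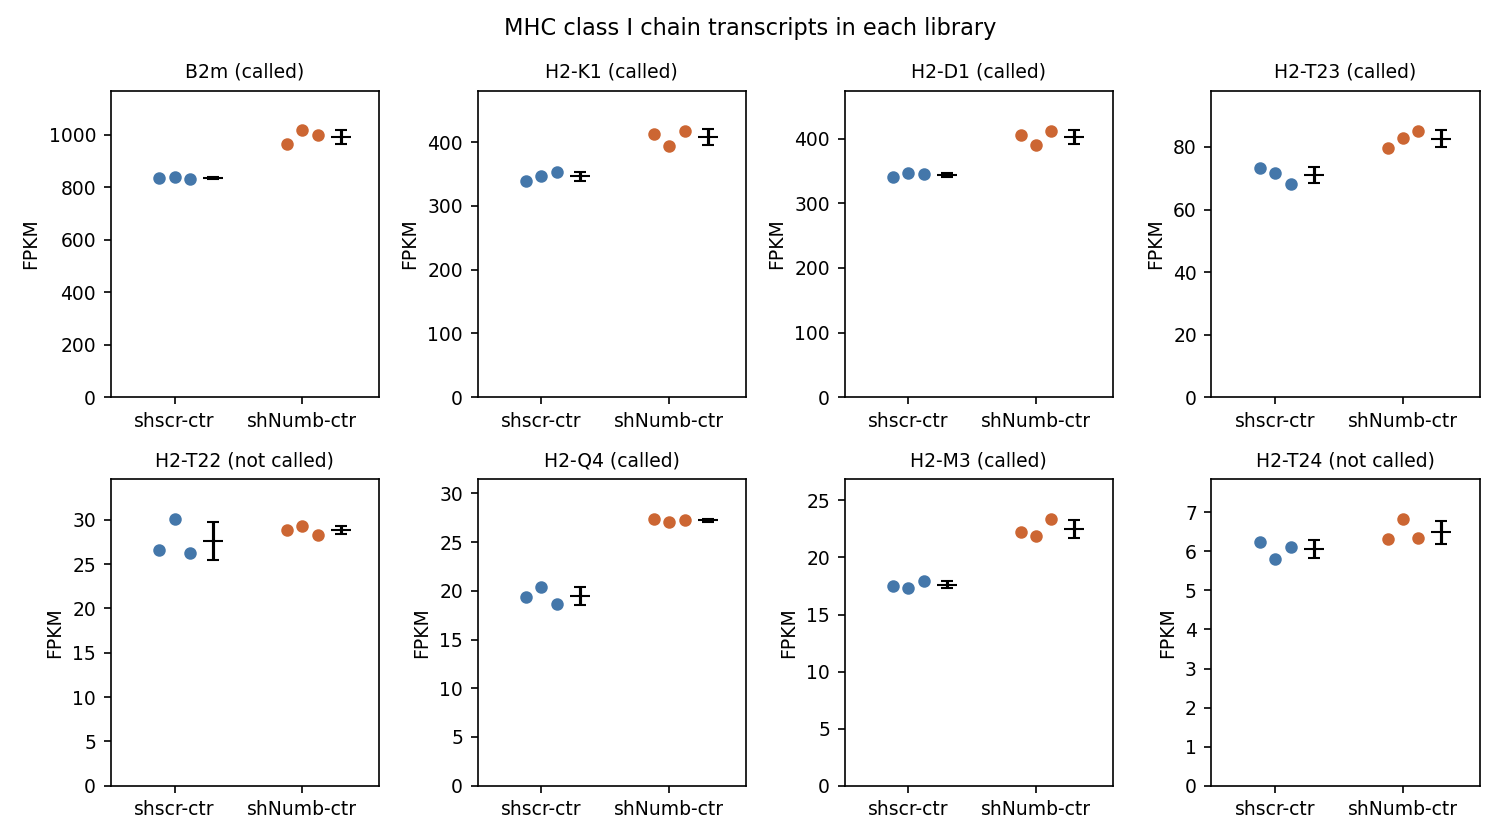
FPKM (linear axis from 0) of the 8 tested class I chain genes in each library, with shscr-ctr in blue and shNumb-ctr in orange; black marks give the mean ± SD of 3 libraries. The groups are separate in every gene but H2-T22, and B2m, H2-K1, H2-D1, H2-T23, H2-Q4 and H2-M3 passed the test.

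Since these 6 chains rose together, the 200 bases before their annotated transcription start are shown, from RefSeq (build GRCm38.p6; the authors' build is not given in the sources used here). Promoter sequence was found for 30 of the 38 genes. Capitals mark matches, on either strand, to 5 motifs: the kappa B site bound by NF-kB (GGG, any pair of bases, TT, any base, CC), GTTTCACTTCT (the interferon response sequence as it reads in H2-D1), the canonical interferon-stimulated response element (GAAA, any pair of bases, GAAA), TGACG (the core of a cAMP response element, as in the X2 box) and GATTGG (the inverted CCAAT of the Y box, bound by NF-Y). H2-K1 has 2 annotated starts, of which the one farther downstream is used. H2-Q4 holds a pair of overlapping kappa B matches.
B2m (chr2:122147487-122147686, plus strand): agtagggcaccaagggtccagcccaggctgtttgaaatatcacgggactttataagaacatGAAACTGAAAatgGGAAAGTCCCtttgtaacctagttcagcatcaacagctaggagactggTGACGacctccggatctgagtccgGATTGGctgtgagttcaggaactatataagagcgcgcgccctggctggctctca
H2-K1 (chr17:34000334-34000533, minus strand): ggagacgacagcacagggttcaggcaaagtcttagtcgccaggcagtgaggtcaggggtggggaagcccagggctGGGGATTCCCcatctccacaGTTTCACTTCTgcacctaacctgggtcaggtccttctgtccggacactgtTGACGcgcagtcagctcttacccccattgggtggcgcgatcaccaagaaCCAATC
H2-D1 (chr17:35262894-35263093, plus strand): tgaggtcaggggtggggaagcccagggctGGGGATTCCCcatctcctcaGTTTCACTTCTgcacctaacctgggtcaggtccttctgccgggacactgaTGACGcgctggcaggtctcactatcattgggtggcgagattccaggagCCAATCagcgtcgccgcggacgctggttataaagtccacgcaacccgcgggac
H2-Q4 (chr17:35379417-35379616, plus strand): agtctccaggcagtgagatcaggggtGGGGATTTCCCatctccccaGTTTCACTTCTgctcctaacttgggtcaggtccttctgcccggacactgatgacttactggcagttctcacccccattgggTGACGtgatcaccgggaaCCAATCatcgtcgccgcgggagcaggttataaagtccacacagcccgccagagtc
H2-M3 (chr17:37270034-37270233, plus strand): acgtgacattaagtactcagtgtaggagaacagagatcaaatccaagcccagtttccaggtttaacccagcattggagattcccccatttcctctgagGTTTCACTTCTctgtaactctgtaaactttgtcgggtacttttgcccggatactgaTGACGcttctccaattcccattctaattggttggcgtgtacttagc
H2-T23 (chr17:36032702-36032901, minus strand): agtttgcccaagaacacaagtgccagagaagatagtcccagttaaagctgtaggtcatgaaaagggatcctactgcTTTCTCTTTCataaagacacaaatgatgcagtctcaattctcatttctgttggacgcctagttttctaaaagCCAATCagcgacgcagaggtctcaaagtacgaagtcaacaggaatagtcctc

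From the distal end, H2-K1, H2-D1 and H2-Q4 hold, in the same order, a kappa B match, the interferon response sequence, a TGACG match and a Y box. In H2-D1 these begin 171, 151, 101 and 53 bases before the start, and in H2-Q4 174, 154, 73 and 55 bases before it. In H2-K1 they begin 125, 105, 55 and 6 bases before the start used. The TGACG match of H2-Q4 is not the site shared by H2-D1 and H2-K1. Where that site lies in H2-D1, the H2-Q4 sequence differs and holds no match. B2m holds the canonical interferon element 139 bases before the start in place of GTTTCACTTCT, next to a kappa B match on the other strand. H2-T23 has matches only to the canonical element and the Y box, and H2-M3 only to the interferon response sequence and TGACG. Of the 9 class I chains with a promoter sequence, 6 had a kappa B match, against 3.39% of all 32851 promoter windows, 8 had a Y box, against 12.9%, and 7 held TGACG, against 15.7%. The matches do not separate the chains that rose from the others: the kappa B and Y box matches include H2-Q6 and H2-Q7, listed at or near 0, and H2-T22, which was not called, holds the canonical element, TGACG and the Y box. GTTTCACTTCT was found in 13 windows (0.0396%), of which 8 belong to 7 H2 genes. Its letters were read off one of these promoters, so that share is a description only. Of 11 loading and proteasome genes with a sequence, 0 held a kappa B match or either interferon motif. Over all windows the shares were 3.39% for kappa B, 0.0396% for GTTTCACTTCT and 2.27% for the canonical element, so 0 of 11 is near them. TGACG was held by 5 of the 11 and the Y box by 3, against 15.7% and 12.9% of all windows. A match is a description of letters and not of a bound site.

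In peptide loading, 0 of the 8 genes, all of them tested, were called higher and 1 lower, with a median log2 fold change of -0.02. Both counts are near the shares over all genes (8.11% higher, 10.7% lower), and the step was not tested against the chains. Tap1 and Tap2, the subunits of the peptide transporter, had positive log2 fold changes without passing. Tap1 was at 25.1, 26.6 and 24.6 FPKM in shscr-ctr against 27.9, 26.1 and 28.0 in the libraries labelled shNumb-ctr (log2 fold change 0.10, SE 0.044, limma adjusted p = 0.137). Tap2 was at 13.3 ± 0.142 against 14.1 ± 0.169 FPKM, with separate groups (SD, n = 3; log2 fold change 0.08, SE 0.037, limma adjusted p = 0.156). Tapbp, the tapasin that bridges TAP to the heavy chain, was at 56.9 ± 1.66 against 53.3 ± 2.68 FPKM (log2 fold change -0.09). Its relative Tapbpl, a peptide editor, was at 2.78 ± 0.155 against 2.36 ± 0.0630 FPKM (log2 fold change -0.17, SE 0.063, limma adjusted p = 0.0948).

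Canx, the membrane-bound chaperone calnexin that holds newly made heavy chains, was the loading gene that fell. It was at 102.1, 98.0 and 98.7 FPKM in shscr-ctr and at 94.0, 91.0 and 84.1 in the libraries labelled shNumb-ctr, with separate groups. The call was marginal (log2 fold change -0.15, SE 0.043, limma adjusted p = 0.0441). It was lost without shscr-ctr replicates 1, 2 and 3, with limma adjusted p of 0.131, 0.0696 and 0.0898, and without shNumb-ctr replicates 2 and 3, with 0.0688 and 0.0861; over 16 alternatives it ranged from 0.039 to 0.131. The soluble counterpart Calr (calreticulin) was at 215 ± 3.67 against 212 ± 2.53 FPKM, with a log2 fold change of -0.02 as deposited and 0.0020 after median-of-ratios rescaling or 0.0075 after quantile normalization. Pdia3, the disulfide isomerase of the loading complex, was at 131 ± 1.28 against 129 ± 4.24 FPKM. Erap1, which trims peptides in the endoplasmic reticulum, was at 7.21 ± 0.405 against 7.44 ± 0.313 FPKM, and neither passed.

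The immunoproteasome replaces the catalytic subunits of the standard proteasome and is induced by interferon-gamma. Of its 3 catalytic genes and the 2 PA28 genes, 1 was called lower and 0 higher, which is near the shares over all genes. Psmb10, the inducible counterpart of Psmb7, was at 32.5, 33.5 and 31.1 FPKM in shscr-ctr and at 28.8, 26.0 and 26.5 in the libraries labelled shNumb-ctr. The groups are separate and the mean fell to 0.837-fold (log2 fold change -0.25, SE 0.048, limma adjusted p = 0.012), opposite in direction to the class I chains. Psmb8 was at 62.9 ± 0.233 against 59.4 ± 4.73 FPKM (log2 fold change -0.08) and Psmb9 at 22.96 ± 1.52 against 23.9 ± 0.637 (log2 fold change 0.06). Both overlapped between the groups. Psmb9 and Tap1 are transcribed in opposite directions, and their annotated exons overlap by 212 bases, so that reads there cannot be told apart unless strand was used in counting, which is not given in the sources used here. The activator genes Psme1 and Psme2 were at 101 ± 2.80 against 98.7 ± 3.02 and at 58.1 ± 6.90 against 57.4 ± 4.27 FPKM. Psme2 shares 58.7% of its windows with other genes and is uncertain; its log2 fold change of -0.01 turned positive after median-of-ratios rescaling and quantile normalization (0.0106 and 0.0096) and in 4 of the 6 fits that left out a library.

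Set against the constitutive subunit it replaces, each inducible subunit gave a ratio within a library that does not depend on scaling. Psmb10 over Psmb7 was 0.188, 0.211 and 0.184 in shscr-ctr and 0.177, 0.149 and 0.163 in the libraries labelled shNumb-ctr. These groups do not overlap (log2 difference -0.25; two-sided exact permutation p = 0.1, the smallest that 3 against 3 allow, adjusted p = 0.3 over the 3 ratios). Psmb8 over Psmb5 ranged from 0.377 to 0.3997 and from 0.334 to 0.3975 (log2 difference -0.08, exact permutation p = 0.4, adjusted p = 0.5), and Psmb5 itself is uncertain with 56.5% shared windows. Psmb9 over Psmb6 ranged from 0.0554 to 0.0650 and from 0.0564 to 0.0577 (log2 difference -0.07, exact permutation p = 0.5, adjusted p = 0.5). Here the constitutive Psmb6 was itself called higher (log2 fold change 0.13, limma adjusted p = 0.014), while the log2 fold change of Psmb9 was 0.06. Constitutive transcripts outnumbered inducible ones per length in every library, least so for Psmb8.

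**Figure D2:**
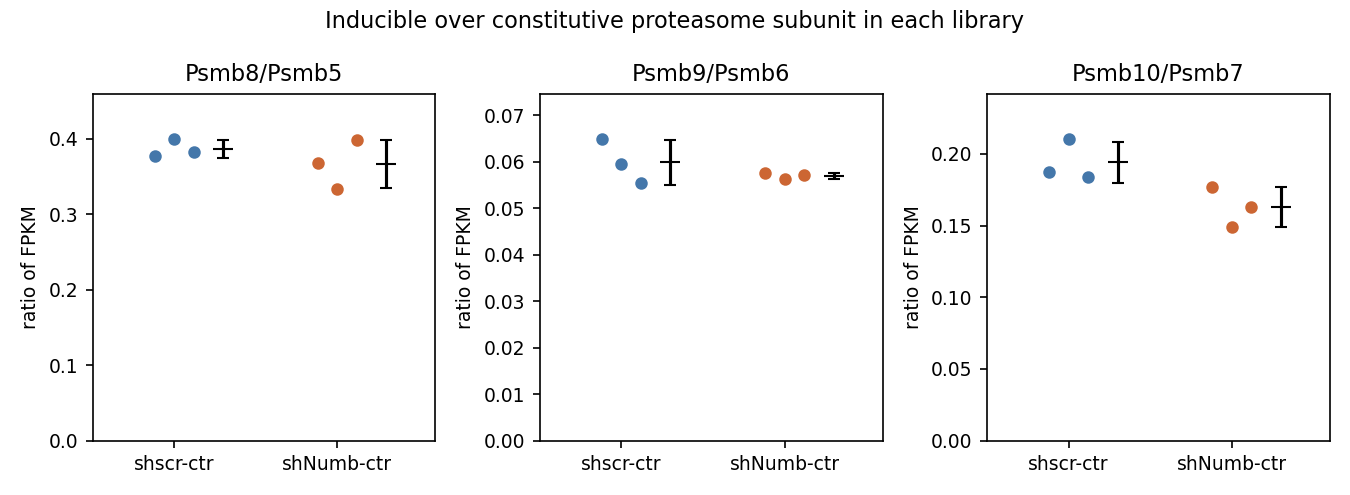
Ratio of the FPKM of each inducible catalytic proteasome subunit to its constitutive counterpart (linear axis from 0) in each library, with shscr-ctr in blue, shNumb-ctr in orange and the mean ± SD of 3 libraries in black. The groups are separate for Psmb10/Psmb7, at 0.184 to 0.211 against 0.149 to 0.177, and overlap for the others.

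For class II, the peptide-binding chains were listed at 0, while levels of the other genes of the pathway ran from 0 (H2-Ob) to 679 FPKM (Lgmn). H2-Aa, H2-Ab1 and H2-Eb1, the alpha and beta chains of I-A and the beta chain of I-E, were listed at 0 in all 6 libraries, as were H2-Ea and H2-Eb2 among the other pathway genes. Cd74, the invariant chain that occupies the class II groove, was nevertheless at 284, 284 and 286 FPKM in shscr-ctr and at 296, 295 and 285 in the libraries labelled shNumb-ctr. It ranked 203 among all listed genes and did not differ beyond the spread of the groups (log2 fold change 0.04, 95% interval -0.02 to 0.10, limma adjusted p = 0.319). H2-Aa is shown for comparison with the class I promoters, with capitals for the same motifs; its TGACGTCA joins overlapping TGACG matches on opposite strands.
H2-Aa (chr17:34287824-34288023, minus strand): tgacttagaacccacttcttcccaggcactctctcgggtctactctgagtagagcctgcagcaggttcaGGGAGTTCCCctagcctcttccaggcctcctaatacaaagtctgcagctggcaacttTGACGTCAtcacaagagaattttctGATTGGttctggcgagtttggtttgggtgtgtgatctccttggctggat

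All 6 promoter sequences of class II and exchange genes held the Y box, H2-Aa and the transcribed H2-Oa among them, against 12.9% of all windows. Of these 6, 2 (H2-Aa and H2-Oa) held a kappa B match, against 3.39%, and 1 (H2-Aa) held TGACG, against 15.7%. Either interferon motif was held by 0 of the 6, against 0.0396% for GTTTCACTTCT and 2.27% for the canonical element. In peptide exchange, where DM catalyses the release of the invariant chain fragment and DO restrains DM, the subunit genes were unequal in level. H2-Oa, the alpha chain of DO, was at 14.98, 14.2 and 14.6 FPKM in shscr-ctr and at 17.9, 16.9 and 17.5 in the libraries labelled shNumb-ctr. It rose 1.19-fold with separate groups (log2 fold change 0.24, SE 0.040, limma adjusted p = 0.00761). Its partner H2-Ob, the beta chain of DO, was listed at 0 in every library. Of the exonic bases of H2-Oa, 22.8% overlap an antisense gene, BC051537, which bears on its level if strand was not counted.

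DM showed a like imbalance, with its alpha chain near the filter and its beta chain higher. H2-DMa was at 2.04, 1.32 and 2.00 FPKM against 1.58, 1.22 and 1.74, and H2-DMb1 at 15.9 ± 0.265 against 15.1 ± 0.783 (SD, n = 3). Neither was called, with log2 fold changes of -0.14 (95% interval -0.44 to 0.15) and -0.07 (-0.18 to 0.03). H2-DMb1 is uncertain, with 27.9% of its windows shared with H2-DMb2, a gene at no more than 1.16 FPKM.

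The endosomal processing genes were abundant and moved in opposite directions. Ifi30, the thiol reductase that opens disulfide bonds of antigens, was at 358, 356 and 343 FPKM in shscr-ctr and at 323, 311 and 328 in the libraries labelled shNumb-ctr. It fell to 0.909-fold (log2 fold change -0.14, SE 0.030, limma adjusted p = 0.0183), with separate groups. Lgmn, the asparagine endopeptidase legumain, was at 598, 608 and 598 FPKM against 678, 635 and 679 and rose 1.105-fold (log2 fold change 0.14, SE 0.032, limma adjusted p = 0.0189). The Ifi30 call was lost without shscr-ctr replicate 1 (limma adjusted p = 0.0669, over all alternatives 0.0142 to 0.0669). That for Lgmn was lost without shscr-ctr replicates 1 and 3 and without shNumb-ctr replicates 1 and 3, with limma adjusted p of 0.0645, 0.0614, 0.0649 and 0.0587 in a range of 0.0078 to 0.0649.

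**Figure D3:**
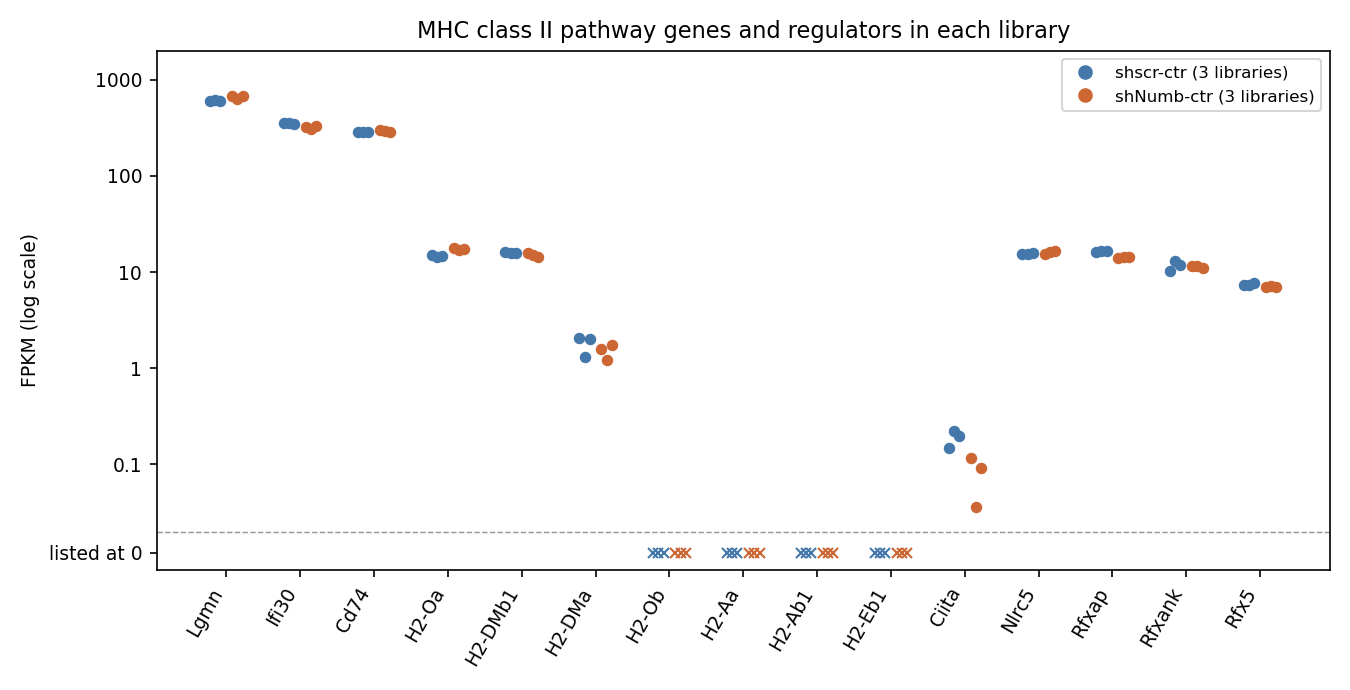
FPKM on a log axis of the class II pathway genes and of the regulators in each library, 3 per group, with shscr-ctr in blue and shNumb-ctr in orange; crosses under the dashed line are values listed at 0. Cd74, Ifi30 and Lgmn lie above 280 FPKM, H2-Aa, H2-Ab1, H2-Eb1 and H2-Ob are listed at 0, and Ciita reaches no more than 0.222 FPKM.

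Of the 4 tested regulators of the class I and class II promoters, 1 was called lower and 0 higher. Over all genes tested 10.7% were called lower and 8.11% higher, and the regulators were not tested against these shares. Ciita, the master coactivator of class II, was at 0.149, 0.222 and 0.1995 FPKM in shscr-ctr and at 0.118, 0.0357 and 0.0921 in the libraries labelled shNumb-ctr, below the filter and therefore not tested. The Ciita groups do not overlap, with means of 0.190 and 0.0818 FPKM. Nlrc5, its counterpart for class I, was at 15.4, 15.4 and 15.7 FPKM against 15.5, 16.2 and 16.6. Nlrc5 overlapped between the groups (log2 fold change 0.05, 95% interval -0.04 to 0.14, limma adjusted p = 0.412). Of the RFX complex, which binds the X box of both promoter classes, Rfxap fell and the others did not pass. Rfxap was at 16.2, 16.6 and 16.5 FPKM against 14.0, 14.4 and 14.4, with separate groups (log2 fold change -0.19, SE 0.037, limma adjusted p = 0.0126). Rfx5 was at 7.44 ± 0.241 against 7.06 ± 0.0251 FPKM, lower in all 3 libraries without a call (log2 fold change -0.07, limma adjusted p = 0.347). Rfxank was at 11.8 ± 1.39 against 11.4 ± 0.396 FPKM, with 33.8% of its exonic bases overlapped on the other strand by Nr2c2ap, and its log2 fold change of -0.04 became 0.04 without shscr-ctr replicate 2.

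**Figure D4:**
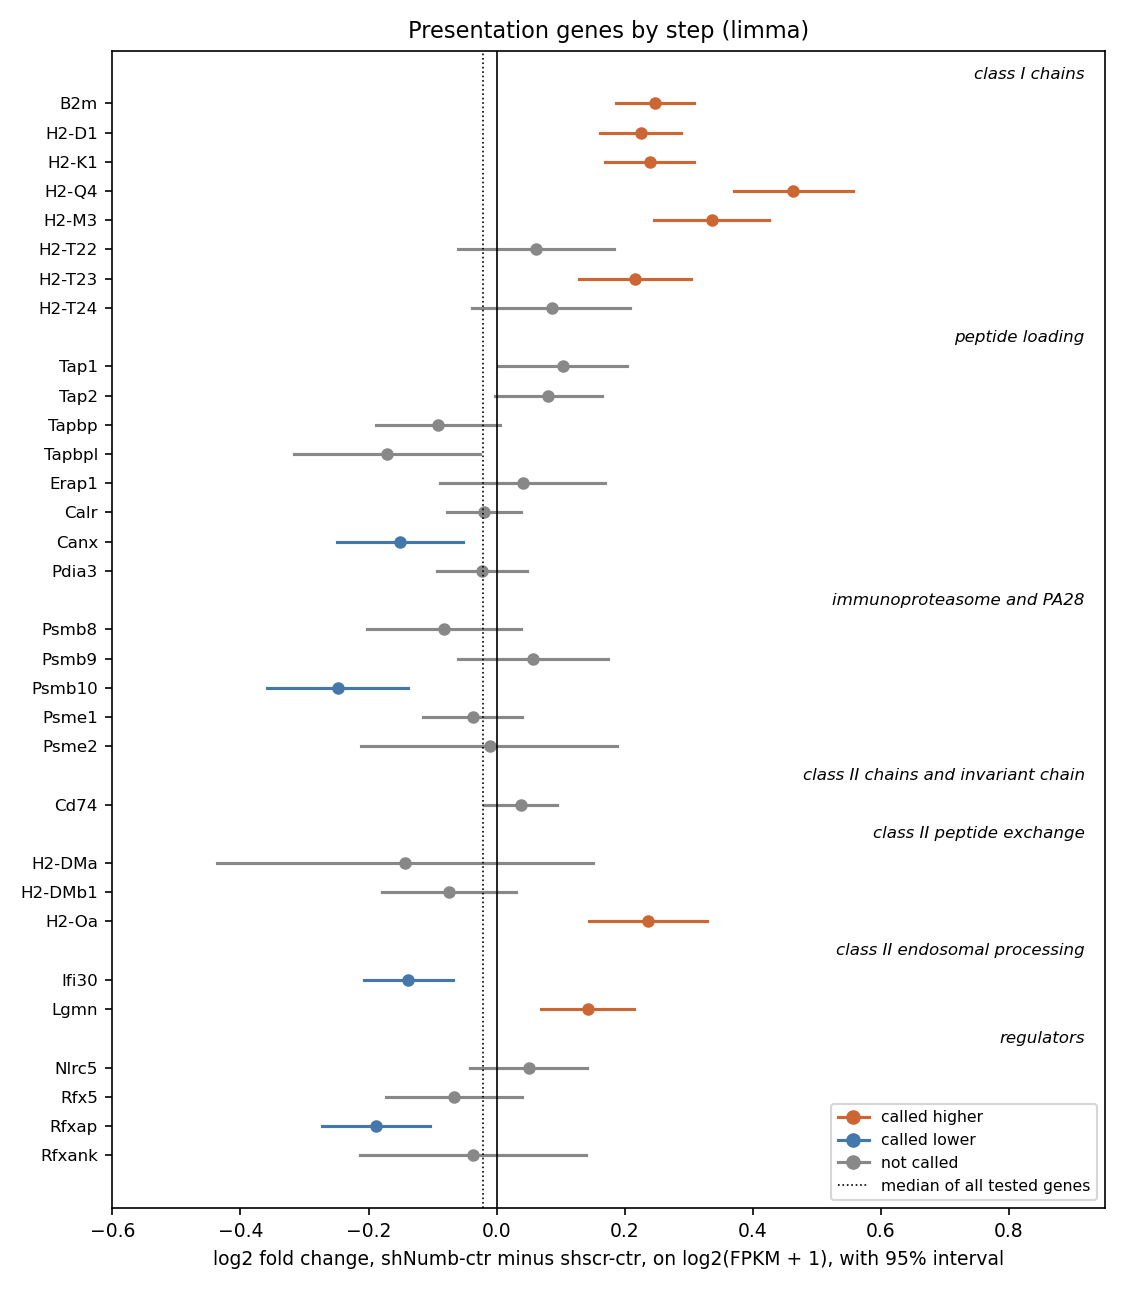
Log2 fold change (shNumb-ctr minus shscr-ctr, on log2(FPKM + 1)) of the 31 tested presentation genes with 95% intervals from limma, ordered by step; orange and blue mark genes called higher and lower at an adjusted p under 0.05. The called rises are 6 class I chains, H2-Oa and Lgmn, the called falls are Canx, Psmb10, Ifi30 and Rfxap, and the dotted line is the median of all tested genes at -0.02.

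Beside those already given, antisense genes overlap 29.4% of the exonic bases of H2-T22, 26.8% of Rfx5, 24.9% of Tapbp, 14.7% of Psmb8, 14.1% of Tap2, 11.5% of Erap1, 10.4% of H2-DMa, 8.67% of Ifi30 and 3.45% of Ciita, with smaller shares in Nlrc5, Pdia3 and Psme1, which bears on their levels in the same way. A further antisense gene, Gm20496, overlaps 4.36% of Tap2, and Zbtb22 overlaps 4.11% of Tapbp on the same strand.

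A wider list of 95 other pathway genes, of which 89 are listed and 69 were tested, gave 7 calls higher and 10 lower, against the shares of 8.11% and 10.7% over all genes. The counts of the single lists that follow were not tested against these shares. Among further class I and class I-like genes, only Mr1, which presents vitamin B metabolites to mucosal T cells, was called of 6 tested. It went from 12.03 ± 0.247 to 13.4 ± 0.269 FPKM (SD, n = 3; log2 fold change 0.14, limma adjusted p = 0.0388), a call lost when any 1 library was left out (up to 0.104, over all alternatives 0.0236 to 0.104). H2-T10, near the filter at 0.897 ± 0.195 against 1.27 ± 0.0390 FPKM, had a log2 fold change of 0.27 without passing (limma adjusted p = 0.0852). Its level is uncertain, with 32.0% of its windows shared, most of them with H2-T22. Of the constitutive proteasome list, Psmb6 rose (log2 fold change 0.13) and Psme3, the nuclear PA28 subunit, fell (-0.15). The Psmb6 call was lost without shscr-ctr replicate 1 (limma adjusted p = 0.056, range 0.0126 to 0.056). That for Psme3 was lost without shscr-ctr replicates 1 and 3 and without shNumb-ctr replicate 1 (0.0612, 0.0584 and 0.0603, range 0.0148 to 0.0612).

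In endoplasmic reticulum folding and export, Hspa5 (the chaperone BiP) rose from 177 ± 3.66 to 197 ± 1.68 FPKM (log2 fold change 0.15, limma adjusted p = 0.0077), while Sec61a1, of the translocon, and Ganab, a glucosidase that prepares glycoproteins for calnexin, fell (-0.16 and -0.13), of 10 tested. The Sec61a1 call was lost without shscr-ctr replicates 1 and 2 and without shNumb-ctr replicates 2 and 3 (limma adjusted p of 0.0739, 0.0579, 0.0528 and 0.067, range 0.0186 to 0.0739). That for Ganab was lost without replicates 1 and 3 of either group (0.0762 and 0.0679 for shscr-ctr, 0.0649 and 0.0635 for shNumb-ctr, range 0.0171 to 0.0762). Of 8 cytosolic peptidases only Thop1, which degrades class I peptides, was called, lower by 0.16 on the log2 scale; its call did not hold when replicate 1 of shscr-ctr or of shNumb-ctr was left out (limma adjusted p of 0.059 and 0.0607, range 0.0157 to 0.0607).

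Among 10 tested genes of class II endosomal proteolysis and traffic, 3 were called higher and 1 lower, against 8.11% and 10.7% of all genes tested. Ctsb, cathepsin B, rose from 396 ± 4.63 to 509 ± 10.4 FPKM, Ctsl from 642 ± 2.30 to 708 ± 10.4 and Ctsd from 994 ± 14.0 to 1172 ± 26.8 (SD, n = 3; log2 fold changes 0.36, 0.14 and 0.24; limma adjusted p of 2.9e-04, 0.00708 and 0.00166). Ctsd is uncertain, with 36.5% shared windows. Ctsh fell from 29.4 ± 0.909 to 19.0 ± 1.13 FPKM (log2 fold change -0.61, limma adjusted p = 5.1e-04). Ctss, a protease that cleaves the invariant chain, measured 312 ± 7.89 and 322 ± 3.98 FPKM and was not called (log2 fold change 0.04, limma adjusted p = 0.303).

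Of 10 enhanceosome and coactivator genes 0 were called higher, and Creb1, which binds the X2 box, and Ezh2, a histone methyltransferase, were called lower. Over all genes tested the shares were 8.11% higher and 10.7% lower. Creb1 was at 10.3, 9.83 and 10.99 FPKM in shscr-ctr against 6.52, 8.45 and 6.22 (log2 fold change -0.51, SE 0.099, limma adjusted p = 0.0127). The Ezh2 change was -0.18, and its call was lost without any library but shNumb-ctr replicate 2, with limma adjusted p from 0.0661 to 0.13 (over all alternatives 0.0259 to 0.13). The list of the interferon-gamma axis also holds genes of type I interferon signalling and response, Isg15 among them. Of its 18 tested genes, 1 was called higher and 3 lower, against the same shares. Ifngr2, a receptor chain, rose from 15.3 ± 0.651 to 18.5 ± 0.767 FPKM (log2 fold change 0.26, limma adjusted p = 0.00977), and Irf1, Irf8 and Socs3 fell.

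Irf1, a transcription factor of class I genes, was at 14.0, 14.6 and 14.1 FPKM in shscr-ctr against 12.4, 12.7 and 12.9 (log2 fold change -0.16, limma adjusted p = 0.0294), and Irf8 at 39.5 ± 1.12 against 36.0 ± 0.414 (-0.13, limma adjusted p = 0.0305). The Irf1 call was lost when any 1 library was left out (limma adjusted p from 0.0583 to 0.0915, over all alternatives 0.0276 to 0.0915). Irf8 lost it without any library but shscr-ctr replicate 3 (0.0663 to 0.101, over all alternatives 0.0253 to 0.101). Socs3, a feedback inhibitor of cytokine receptors, changed by -0.22 (limma adjusted p = 0.0223), which missed the threshold when shscr-ctr replicate 1 or either of shNumb-ctr replicates 1 and 3 was left out (0.0728, 0.0709 and 0.0533, range 0.0201 to 0.0728). Ifng was listed at 0 throughout, and Cxcl9, a chemokine induced by interferon-gamma, at no more than 0.0197 FPKM. Isg15, an interferon-stimulated gene, was at 22.5, 25.5 and 21.3 FPKM against 24.9, 33.2 and 27.4 and did not pass (log2 fold change 0.29, limma adjusted p = 0.0877).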

How the data were processed

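RNA of BV2 cells was sequenced in 6 libraries, 3 per label. The authors deposited a value per gene and library with no unit in the header; the values are fractional and were read as FPKM (TPM could not be told apart), normalized by the authors for length and depth. CASAVA and DESeq2 are named in the submitters' processing notes without version or role; for the aligner, genome build and strand setting, they were not given in the sources used here. Of the listed genes, 556 carry default names of a transcript assembler, per the deposited gene names.

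Values were analysed as log2(value + 1), so that fold changes of low genes are understated. Genes at 1 or above in at least 3 libraries were compared by limma-trend (limma 3.58.1, R 4.3.3), shNumb-ctr against shscr-ctr, two-sided, without covariate, with Benjamini-Hochberg adjustment over all 10594 genes; the call needed an adjusted p under 0.05. The fit was tested on simulated data. Ratios were tested by exact permutation (scipy 1.17.1, Python 3.11.15). Genes with over 20% of 50-base transcript windows (every 10 bases, GENCODE M21, GRCm38) found in other genes are called uncertain. Motifs were searched in the 200 bases before RefSeq starts.

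The presentation genes, the wider lists and the tests were chosen with earlier results of these data known. The text accounts for all 38 presentation genes, and from the wider lists it names the called genes, at most 3 per list and direction. H2-T10, Ctss, Isg15, Cxcl9, Ifng and H2-DMb2 were named after their values were seen, as were Il1b, Cxcl10, P2ry12, Tmem119, Zbtb46, Itgam, Csf1r and Spi1. No label gives a batch. Alternatives were other pseudocounts, filters, scalings and priors, a replicate block and leaving out each library.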

Additional observations from a re-analysis of the deposited data

How the results depend on the processing

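Of the 12 called presentation genes, 9 kept call and direction in all 16 alternatives, the 6 class I chains among them, and Canx, Ifi30 and Lgmn did not. Tapbpl gained a call with a constant prior variance (limma adjusted p = 0.0398). Leaving out 1 library at a time, all called genes numbered 499 to 671 higher and 465 to 869 lower, presentation genes 2 to 4 lower, class I genes 1 to 2 lower, class II genes 1 to 2 higher and 0 to 1 lower, and other pathway genes 2 to 7 lower. In class I, 1 gene was called lower in place of 2 with no filter, after median-of-ratios rescaling and after quantile normalization. A constant prior variance left 1 class II gene higher and 0 lower. The log2 fold change of Calr reversed to 0.0020 after median-of-ratios rescaling and 0.0075 after quantile normalization, and that of Psme2 to 0.0106 and 0.0096. Leaving out libraries, Psme2 ranged from -0.11 to 0.043, Pdia3 from -0.047 to 0.0003 and Rfxank from -0.12 to 0.036. The cause of these changes was not tested. No pairing of the libraries by replicate number was seen in the values. Deviations from the group means correlated by 0.007, 0.012 and 0.047 between same-numbered libraries and by -0.088 to 0.066 between the others. Not every library correlated best with its own number. With 3 libraries per group, such correlations cannot show how the libraries were handled. With the replicate block, 520 genes were higher and 559 lower, 2 presentation genes were lower, 1 class I gene was lower, 1 class II gene was higher and 0 lower, and 3 other pathway genes were lower. The ratios kept their direction in every alternative run. Depth is unknown, so no limit of detection can be given for genes listed at 0.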
